A study of Rattus norvegicus with 3 samples.

Results

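RNA-binding proteins decide which exons enter a neuronal mRNA, how long that mRNA lasts, where in the cell it is carried and when it is translated. Many work as small families in which 1 gene is used broadly or in dividing progenitors and a close relative is used mainly in neurons. In growing axons, some of them hold mRNAs silent during transport and release them for local translation near the growth cone. The group described here holds 52 genes of these functions, chosen by name: splicing regulators, proteins that control stability or translation, mRNA transport proteins, the cap-binding factor Eif4e with its inhibitors, and decay factors. All 52 were found by symbol, ignoring case, among the 26353 entries of the authors' table. Qk alone had a second row, listed at 0 in each library, and the other row was used.

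The RNA came from commissural neurons of the spinal cord, whose axons cross the ventral midline. The neurons were taken from rat embryos of embryonic day 13 and kept for 2 days in culture, with no treatment named. All 3 libraries, named 1, 2 and 3 after the replicate numbers of the labels, form 1 group with no control, and each gene was therefore set against other genes of the same library. Levels are the authors' FPKM, by its usual meaning a fragment count per transcript length and mapped total, so levels of different genes are compared per length. Which total the authors scaled to is not given in the sources used here, and a fixed level such as 1 FPKM rests on it. The labels do not say whether separate cultures or animals gave the libraries. P-values therefore measure the spread between these samples only, and that spread may be technical.

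Markers of neurons were abundant, and those of other cells were present too. All 12 pan-neuronal markers lay above 1 FPKM, with summed levels of 3340 to 3640 FPKM per library. Of the progenitor markers, 10 of 11 passed, with sums of 974 to 1230 FPKM and Pax7 at 0.387 ± 0.146, and so did 8 of 8 proliferation markers, with sums of 124 to 145 FPKM. Of the microglia and macrophage markers, 2 of 6 did, with sums of 8.43 to 13.3 FPKM and Cx3cr1 at 0.240 ± 0.101. The oligodendrocyte list passed in 2 of 7, with sums of 17.9 to 19.8 FPKM that were mostly Mog, while Olig1, Olig2 and Sox10 were at 0 to 0.03 FPKM. The astrocyte list passed in 3 of 6, with sums of 35.8 to 37.5 FPKM that were mostly Slc1a2, and Gfap and Aqp4 were at 0 to 0.06 FPKM. Of the markers of neural crest and sensory ganglia, 2 of 6 passed, with sums of 15.3 to 16.7 FPKM that were mostly Foxd3, and Isl2 was listed at 0. The fibroblast and mural list passed in 1 of 6 and the erythroid list in 1 of 3, and the 5 endothelial genes lay at 0 to 0.31 FPKM. In bulk RNA, fewer cells of a type and less RNA per cell cannot be told apart, and the cell source of each gene below was not tested.

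Of the 52 genes, 50 exceeded 1 FPKM in a fit over all 17611 entries that any library lists above 0 (limma, one-sided, Benjamini-Hochberg adjustment). Of all entries tested, 63.7% passed, and of those with a symbol 68.2%. The adjusted p of the 50 ran from 1.36e-11 to 7.12e-05 (limma). Only Lin28a and Cpeb1 did not pass. The median level of the 52 was 33.7 FPKM, against 6.01 FPKM for the 15827 entries with a symbol and a value above 0. By mean level, 5 genes had 100 FPKM or more, 16 lay between 50 and 100, 21 between 10 and 50, 8 between 1 and 10 and 2 below 1. The spread between libraries was small, with a median coefficient of variation of 6.7% in the 52 genes and 8.44% in the 8695 entries with a mean of at least 5 FPKM. The count rests on the authors' scaling: with each library rescaled to a sum of 1000000 over all entries, of which 56 entries hold 97.6% to 98.2%, 26 of 52 passed, as did 13.4% of all entries.

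**Figure D1:**
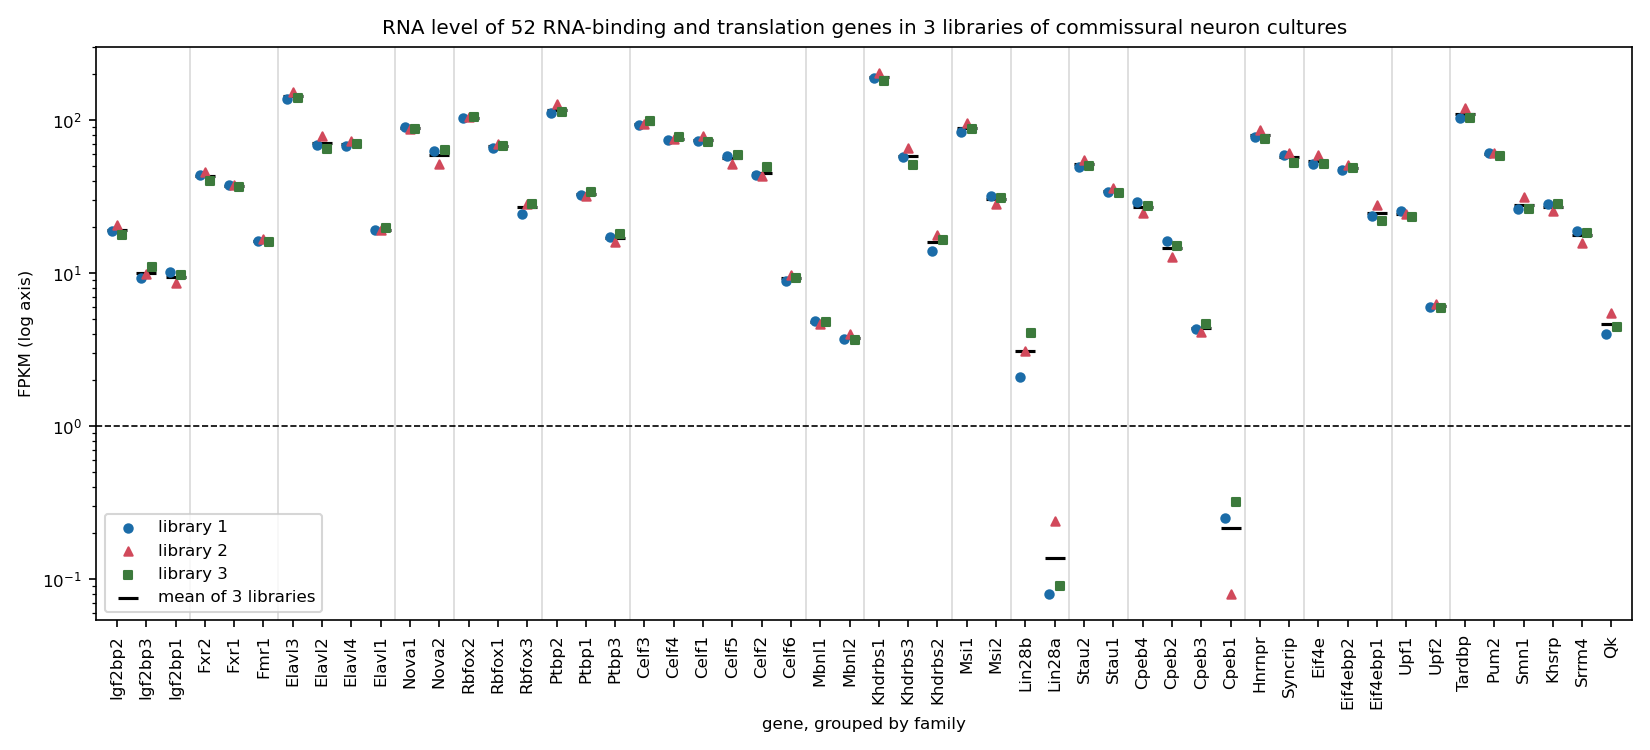
FPKM (log axis) of the 52 genes in libraries 1, 2 and 3, grouped by family and ordered by mean inside each family; the dash is the mean and the broken line is 1 FPKM. The points of most genes nearly coincide, those of Lin28b, Lin28a and Cpeb1 lie apart, and Lin28a and Cpeb1 are the 2 genes below the line.

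Related genes were then compared pair by pair inside each library, to ask which member of each family was the most abundant. All 52 pairs within 16 families were tested with limma on the difference of log2(FPKM + 0.1), and folds are on that scale, which understates those of low genes. The adjustment covered these pairs and 8805 pairs made of all table entries in the order of their gene IDs. Of the 52 related pairs, 49 differed past the threshold (an adjusted p under 0.05), against 90.0% of the 8805 table pairs, so a call alone says little and the sizes carry the comparison. The median fold between related genes was 2.15, against 7.79 between table pairs. Against a margin of 1.5-fold, 36 of 52 passed, and 79.8% of the table pairs. The 13 calls that ended there were Fxr2 over Fxr1, Nova1 over Nova2, Rbfox2 over Rbfox1, Mbnl1 over Mbnl2, Stau2 over Stau1, Hnrnpr over Syncrip, Eif4e over Eif4ebp2 and 6 pairs among Celf1 to Celf5. Pairs of 1 family share genes and are not independent.

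**Figure D2:**
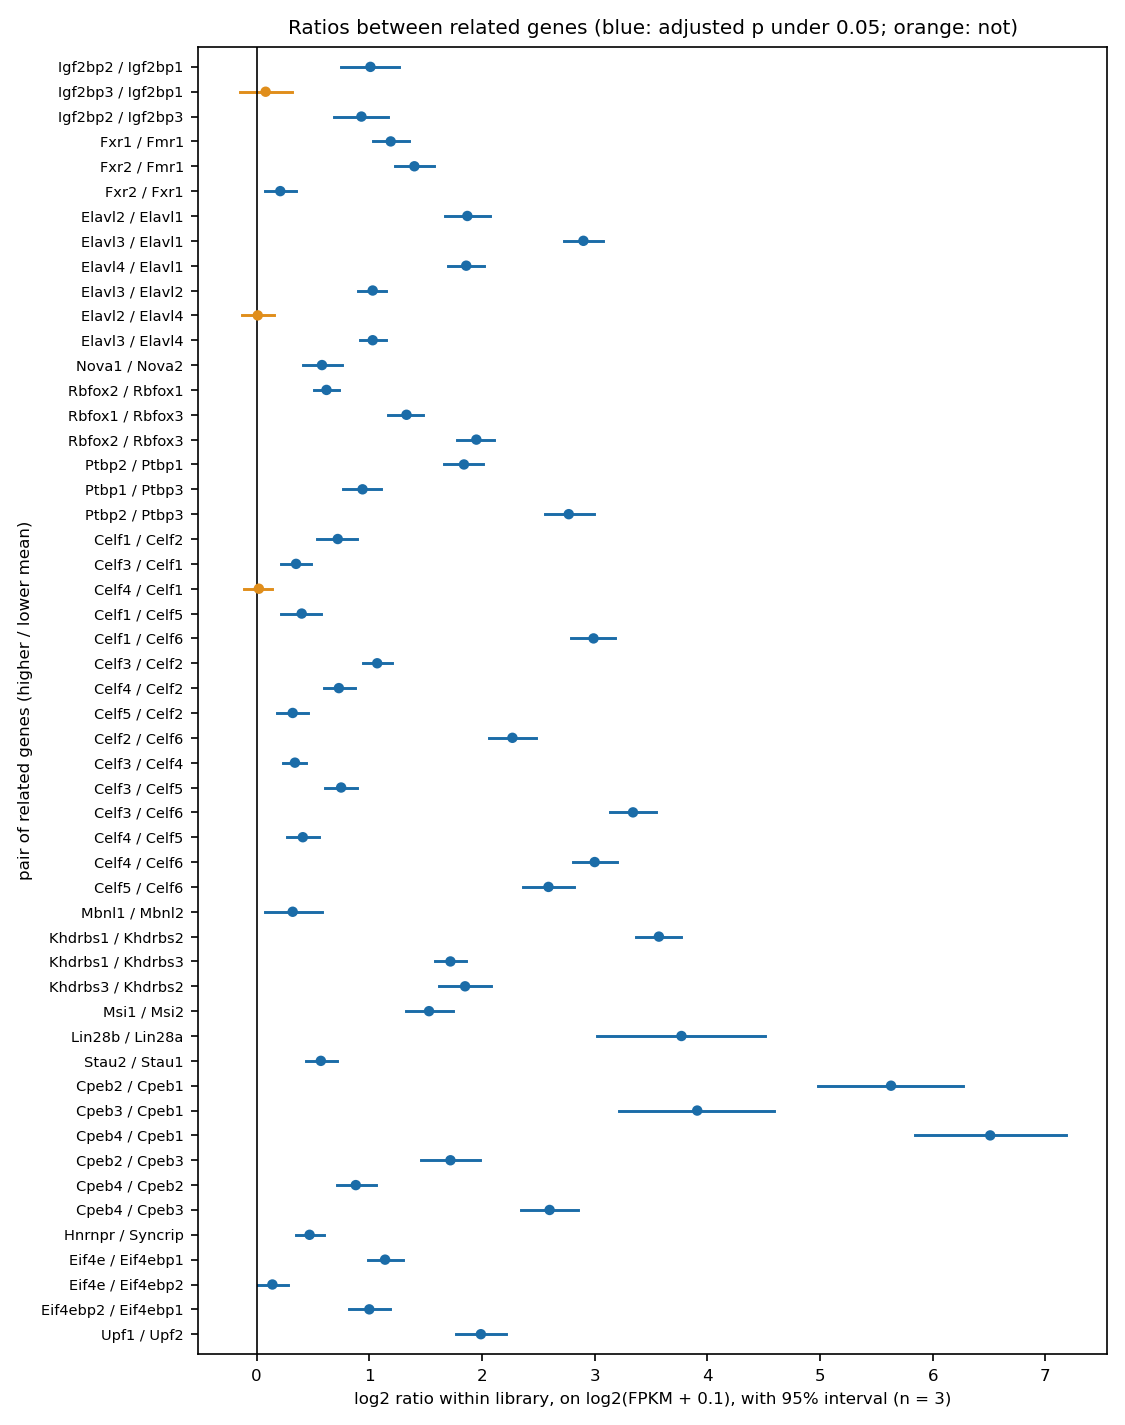
Log2 ratio of the higher over the lower gene in each of 52 related pairs (points) with its 95% interval (lines, n = 3 libraries); blue pairs passed at an adjusted p under 0.05 and orange pairs did not. The 3 orange pairs are Igf2bp3 with Igf2bp1, Elavl2 with Elavl4 and Celf4 with Celf1, and the ratios to Cpeb1 are the largest, with the ratio of Lin28b to Lin28a among the next.

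Among the splicing regulators, the Ptb family was led by its neuronal member. Ptbp proteins bind pyrimidine-rich RNA and hold back neuronal exons, and in mouse development Ptbp1 of progenitors gives way to Ptbp2 in young neurons. Ptbp2 had 112, 127 and 113 FPKM in libraries 1, 2 and 3, the order used throughout. Ptbp1 had 32.5, 31.8 and 34.0 FPKM, and Ptbp3 17.15, 15.98 and 18.1 FPKM. No value of 1 gene overlapped those of another. Ptbp2 exceeded Ptbp1 by 3.57-fold (95% interval 3.17 to 4.03, adjusted p = 4.7e-07 by limma with Benjamini-Hochberg, higher in 3 of 3 libraries) and Ptbp3 by 6.84-fold (5.89 to 7.95). Of the summed FPKM of the family, Ptbp2 held 70.2% ± 2.24 and Ptbp1 19.6% ± 1.27 (SD, n = 3). Ptbp1 stood at 32.8 ± 1.11 FPKM, at or above 84.9% of entries with a symbol. Progenitor and proliferation markers were also present in these cultures, and their part in the level of Ptbp1 was not tested.

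The stretches before the start sites of Ptbp2 and Ptbp1 are shown because their ratio is the one of this family best known from neuronal development. They are the 250 bases upstream of each RefSeq start site on the gene's strand in build GRCr8, chr2:210558278-210558527 and chr7:10502958-10503207, both on the minus strand; capitals mark GC boxes (GGGCGG on either strand).
Ptbp2: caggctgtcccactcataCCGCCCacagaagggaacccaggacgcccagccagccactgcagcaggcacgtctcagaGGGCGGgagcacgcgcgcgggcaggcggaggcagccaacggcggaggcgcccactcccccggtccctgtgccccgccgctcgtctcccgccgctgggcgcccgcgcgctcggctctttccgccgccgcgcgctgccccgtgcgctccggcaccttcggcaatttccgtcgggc
Ptbp1: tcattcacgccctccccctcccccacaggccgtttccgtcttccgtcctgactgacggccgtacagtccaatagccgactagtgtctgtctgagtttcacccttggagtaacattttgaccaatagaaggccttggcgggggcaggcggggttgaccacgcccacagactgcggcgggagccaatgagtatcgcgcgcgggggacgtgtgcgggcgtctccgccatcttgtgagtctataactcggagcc
The Ptbp2 stretch held 2 GC boxes and 34 CG dinucleotides, and that of Ptbp1 0 GC boxes, 3 CCAAT boxes and 21 CG dinucleotides.

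Srrm4, a neuronal splicing activator that counteracts Ptb repression, was at 19.0, 15.9 and 18.4 FPKM, lowest in library 2. Its relative Srrm3, also used in neurons, had 16.5 ± 0.845 FPKM. Nova proteins, which bind YCAY sites and set the exons of synaptic genes, were both abundant. Nova1 had 90.4, 88.1 and 87.8 FPKM. Nova2 had 63.0, 51.6 and 63.95 FPKM. Nova1 was higher in each library, by 1.5-fold (1.33 to 1.69, adjusted p = 0.000199 by limma with Benjamini-Hochberg). Nova2 was lowest in library 2, where Nova1 took 63.1% of the summed Nova level, against 58.9% and 57.9% in libraries 1 and 3.

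Rbfox proteins, which bind GCAUG and can promote or block an exon depending on their position, were ordered Rbfox2, Rbfox1 and Rbfox3. Rbfox2, the most widely used member, had 103, 105 and 104 FPKM, and Rbfox1 65.6, 69.8 and 67.8. Rbfox2 exceeded Rbfox1 by 1.54-fold (1.42 to 1.66, adjusted p = 1.24e-05 by limma with Benjamini-Hochberg, 3 of 3 libraries). Rbfox3, the antigen NeuN that marks differentiated neurons, had 24.4, 28.3 and 28.3 FPKM, 3.85-fold (3.44 to 4.32) below Rbfox2, and held 13.6% ± 0.808 of the family's summed FPKM.

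Celf proteins regulate splicing in the nucleus and decay and translation in the cytoplasm, and Celf3 to Celf6 are known mainly from the nervous system. As a family they had the highest summed level, 356 ± 7.28 FPKM, spread over several genes. Celf3 led with 92.9, 94.2 and 98.3 FPKM, ahead of Celf4 (73.9, 75.1 and 77.1) by 1.26-fold (1.17 to 1.36, adjusted p = 0.000293 by limma with Benjamini-Hochberg, 3 of 3 libraries). Celf4 and the broadly used Celf1 (73.3, 78.5 and 71.8 FPKM) did not differ past the threshold (ratio 1.01, interval 0.927 to 1.1). Celf5 (56.6 ± 4.0) and Celf2 (45.4 ± 3.25) came next, with Celf5 higher by 1.25-fold (1.13 to 1.38). Celf6 had 8.90, 9.77 and 9.29 FPKM, 4.82-fold to 10.1-fold below each of its relatives, and held 2.62% ± 0.133 of the sum.

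The muscleblind genes, whose proteins favour the adult pattern of splicing, were low by comparison. Mbnl1 had 4.86, 4.65 and 4.82 FPKM and Mbnl2 3.72, 4.0 and 3.68. Mbnl1 was higher in each library, by 1.25-fold (1.05 to 1.49, adjusted p = 0.0241 by limma with Benjamini-Hochberg); it did not pass without library 1 or library 3 (limma, Benjamini-Hochberg adjusted p of 0.12 and 0.116). Their summed level of 8.58 ± 0.0751 FPKM was the second lowest of the 16 families, after Lin28.

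The STAR proteins bind UAAA-type sites and link splicing to signalling. Khdrbs1, or Sam68, was the highest of the 52 genes, with 188, 203 and 181 FPKM. Khdrbs3, which acts on neurexin exons in the mouse brain, had 57.6, 65.8 and 50.9 FPKM, and Khdrbs2 14.0, 17.7 and 16.5. Their ranges did not overlap, and Khdrbs1 exceeded Khdrbs3 by 3.29-fold (2.99 to 3.63, adjusted p = 2.61e-07 by limma with Benjamini-Hochberg) and Khdrbs2 by 11.9-fold (10.3 to 13.7). Qk, another STAR protein that is known for glial mRNAs and is also used in neural progenitors, had 4.02, 5.48 and 4.44 FPKM, highest in library 2. So were 67.8% of all entries of at least 5 FPKM, a level just above the Qk mean of 4.65 FPKM. With the median of those entries subtracted, Qk in library 2 lay 0.23 above libraries 1 and 3 on the log2 scale. The summed progenitor list was 1230 FPKM in library 2, against 974 and 1000 in libraries 1 and 3, and most of it was Fabp7 and Vim. Of its 11 genes, 7 were highest in library 2, Notch1 was lowest there (9.70 FPKM, against 12.17 and 12.29), and Hes1, Sox9 and Pax7 lay between. Its part in the level of Qk was not tested. Khsrp, which promotes decay of AU-rich mRNAs, had 28.2, 25.4 and 28.5 FPKM.

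Among proteins that act on stability and translation, the Hu family showed a clear lead of its neuronal members. Elavl2, Elavl3 and Elavl4 are neuronal proteins that bind AU-rich elements and protect mRNAs such as Gap43, while Elavl1 is present in most cells. Elavl3 had 138, 153 and 141 FPKM, the highest of the family in each library. Elavl2 had 69.1, 78.4 and 64.9 FPKM, and Elavl4 67.6, 72.9 and 70.1, so that these overlapped. Elavl1 had 19.05, 19.05 and 19.65 FPKM, the lowest in each library. Elavl3 exceeded Elavl1 by 7.44-fold (6.61 to 8.38, adjusted p = 9.79e-08 by limma with Benjamini-Hochberg, 3 of 3 libraries) and Elavl4 by 2.05-fold (1.9 to 2.21). Elavl2 and Elavl4 did not differ past the threshold (ratio 1.01, interval 0.913 to 1.11; adjusted p = 0.903 by limma with Benjamini-Hochberg). The shares of the summed level varied little between libraries, with Elavl3 at 47.3% ± 0.281 and Elavl1 at 6.34% ± 0.402.

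Musashi proteins hold back translation and are best known from neural progenitors. Msi1 had 83.2, 96.1 and 87.1 FPKM and Msi2 32.1, 28.5 and 31.2. Msi1 exceeded Msi2 by 2.89-fold (2.51 to 3.34, adjusted p = 2.52e-06 by limma with Benjamini-Hochberg, 3 of 3 libraries). Msi1 was highest and Msi2 lowest in library 2. Of all entries of at least 5 FPKM, 67.8% were highest in library 2, as Msi1 was, and 19.4% were lowest there, as Msi2 was. The progenitor list showed the mixed order given above for Qk, and its part in the level of Msi1 was not tested.

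Lin28 proteins bind precursors of let-7 microRNAs at a GGAG sequence in the loop and block their maturation, as studies of mammalian cells have shown; they mark early embryonic and progenitor states. Lin28b had 2.09, 3.10 and 4.07 FPKM and Lin28a 0.08, 0.24 and 0.09. Lin28b was higher in each library, by 13.6-fold (8.14 to 22.7, adjusted p = 1.98e-05 by limma with Benjamini-Hochberg). The Lin28a values lie near the 0.1 added before the logarithm, so the size of this fold depends on that choice. Among the 50 of the 52 genes that passed, Lin28b had the largest spread between libraries, with a coefficient of variation of 32.1%. The summed microglia and macrophage list was likewise lowest in library 1 (8.43 FPKM, against 12.7 and 13.3 in libraries 2 and 3). So were the sums of the progenitor list (974, against 1230 and 1000), the proliferation list (124, against 145 and 130), and the oligodendrocyte and neural crest lists. The pan-neuronal, endothelial, and fibroblast and mural sums were lowest in library 3, and the commissural axon sum in library 2. The astrocyte sum was 35.8 FPKM in libraries 1 and 2, against 37.5. The erythroid sum, nearly all Hba1, was highest in library 1 (57.8 FPKM, against 31.7 and 13.1). The part of these lists in the spread of Lin28b was not tested.

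Small RNAs were not measured here; the let-7 sequences are shown because they are the known targets of the Lin28 pair. In the RefSeq table of build GRCr8, 9 mature microRNAs share the seed GAGGUAG (bases 2 to 8, in capitals below).
rno-let-7a-5p: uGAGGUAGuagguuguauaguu
rno-let-7g-5p: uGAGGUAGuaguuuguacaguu
rno-let-7c-5p: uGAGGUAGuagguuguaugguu
rno-miR-98-5p: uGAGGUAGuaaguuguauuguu
Between the 2 arms of the hairpin, GGAG stood in 8 of the 10 let-7 hairpins with both arms listed, against 24 of all 263 such rat hairpins, or 9.13% (RNA strand only). Examples with it (let-7a-1 on the plus strand of chr17:16320133-16320226 and let-7g on the plus strand of chr8:115701020-115701107) and without it (let-7c-2 on the plus strand of chr7:118683623-118683717 and miR-98 on the plus strand of chrX:24460648-24460755) follow, with GGAG in capitals.
let-7a-1: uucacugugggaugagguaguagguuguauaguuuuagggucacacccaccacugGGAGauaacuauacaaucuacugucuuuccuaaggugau
let-7g: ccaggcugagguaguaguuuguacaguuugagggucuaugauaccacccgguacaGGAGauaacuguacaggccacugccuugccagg
let-7c-2: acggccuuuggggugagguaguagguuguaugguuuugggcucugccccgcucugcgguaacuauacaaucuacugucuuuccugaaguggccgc
miR-98: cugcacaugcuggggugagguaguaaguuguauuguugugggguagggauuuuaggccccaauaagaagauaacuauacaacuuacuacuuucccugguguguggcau
Of the let-7 and microRNA pathway list, 12 of 13 genes lay above 1 FPKM, against 68.2% of all tested entries with a symbol. Ago1 (36.1 ± 1.65), Drosha (34.3 ± 2.15) and Xpo5 (22.7 ± 1.29) were highest. Trim71, a stem cell gene that let-7 represses, was lowest at 0.263 ± 0.145 FPKM.

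Pum2, which binds UGUA-containing sites and represses translation, had 60.8, 61.0 and 58.0 FPKM. Cpeb proteins bind the cytoplasmic polyadenylation element and switch mRNAs on at synapses and in oocytes. Cpeb4 had 29.35, 24.6 and 27.5 FPKM, above the other members in each library. Cpeb2 had 16.2, 12.7 and 15.2 FPKM, and Cpeb3 4.35, 4.12 and 4.66. Cpeb1, the founding member, stayed below 1 FPKM with 0.25, 0.08 and 0.32. All 6 pairs differed, and Cpeb4 exceeded Cpeb2 by 1.85-fold (1.64 to 2.08, adjusted p = 1.83e-05 by limma with Benjamini-Hochberg), Cpeb3 by 6.07-fold (5.11 to 7.23) and Cpeb1 by 91.2-fold (57.2 to 145). The Cpeb1 values lie near the 0.1 added before the logarithm, so the folds over Cpeb1 and their intervals depend on that choice. Cpeb4 held 58.5% ± 0.776 of the summed level and Cpeb1 0.455% ± 0.243. Each of the 4 genes was lowest in library 2, as were 19.4% of all entries of at least 5 FPKM. The means of Cpeb3 and Cpeb1 lay below 5 FPKM, and the order of Cpeb1 rests on values below 1 FPKM.

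The stretches upstream of Cpeb4 and Cpeb1 are shown because the pair has the largest ratio among the 52. They are RefSeq GRCr8 letters from the minus strand, chr10:16283589-16283838 and chr1:144816264-144816513, with GC boxes in capitals.
Cpeb4: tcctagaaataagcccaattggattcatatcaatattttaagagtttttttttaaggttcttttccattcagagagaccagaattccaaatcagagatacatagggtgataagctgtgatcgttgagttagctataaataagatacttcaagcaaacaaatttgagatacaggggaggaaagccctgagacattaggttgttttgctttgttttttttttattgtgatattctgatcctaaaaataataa
Cpeb1: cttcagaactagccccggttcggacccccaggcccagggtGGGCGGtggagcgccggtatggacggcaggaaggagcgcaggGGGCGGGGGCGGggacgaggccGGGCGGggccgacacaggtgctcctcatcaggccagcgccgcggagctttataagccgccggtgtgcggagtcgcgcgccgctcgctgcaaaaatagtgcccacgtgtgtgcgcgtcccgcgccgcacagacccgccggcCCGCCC
The stretch of Cpeb4, the higher gene, held 0 GC boxes and 1 CG dinucleotide, while that of Cpeb1, the lower gene, held 5 GC boxes and 33 CG dinucleotides. Over the 41 of 52 genes with a promoter in the RefSeq table, 65.9% held a GC box in these 250 bases, against 66.3% of 104 genes of the pathway lists and 30.5% of 33469 promoters of the table. The 41 and the 104 hold 1 promoter per symbol. The 33469 were not reduced in this way or limited to genes found in these cells, so the sets are unlike. The median number of CG dinucleotides was 21 in the 41 genes, 21 in the pathway genes and 5 in all promoters. CCAAT on either strand was found in 36.6% of the 41, against 34.0% of all, and TATAAA in 12.2%, against 12.9%. These letters describe the annotated start sites and not the ones used in these cells.

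Genes for mRNA transport were all above 1 FPKM, as were 68.2% of all tested entries with a symbol. With each library rescaled to a fixed sum over all entries, log2 levels were negative for Igf2bp1 (-1.13), Igf2bp2 (-0.26), Igf2bp3 (-1.07) and Fmr1 (-0.47). Under that rescaling Smn1 (0.23) did not pass either, while Fxr1, Fxr2, Stau1, Stau2, Hnrnpr, Syncrip and Tardbp did. Igf2bp proteins bind beta-actin and other mRNAs, and Igf2bp1 carries beta-actin mRNA into axons and growth cones. Igf2bp2 had 18.9, 20.8 and 17.9 FPKM, Igf2bp3 9.37, 9.83 and 10.9, and Igf2bp1 10.15, 8.62 and 9.74. Igf2bp2 was the highest in each library, and the other two overlapped. Igf2bp2 took 49.6% ± 3.30 of their summed level, against 25.9% ± 2.10 for Igf2bp3 and 24.5% ± 2.31 for Igf2bp1. Igf2bp2 exceeded Igf2bp1 by 2.01-fold (1.69 to 2.4, adjusted p = 8.13e-05 by limma with Benjamini-Hochberg, 3 of 3 libraries). Igf2bp3 and Igf2bp1 did not differ past the threshold (ratio 1.06, interval 0.901 to 1.24), and Igf2bp3 was the higher of the 2 in 2 of 3 libraries. Fmr1, which represses translation of synaptic and axonal mRNAs, had 16.2, 16.7 and 16.1 FPKM, below its relatives Fxr1 (37.8, 37.9 and 36.5) and Fxr2 (43.7, 46.2 and 40.1). Fxr2 exceeded Fmr1 by 2.64-fold (2.34 to 2.97, adjusted p = 1.64e-06 by limma with Benjamini-Hochberg) and Fxr1 by 1.16-fold (1.05 to 1.28), which was not called with library 1 left out (adjusted p = 0.0822, limma with Benjamini-Hochberg) or under a plain prior without a trend (adjusted p = 0.117).

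Staufen proteins bind double-stranded RNA in transport granules. Stau2, the neuronal member, had 49.3, 55.4 and 50.3 FPKM and Stau1 34.2, 36.1 and 33.6, and Stau2 was higher in each library by 1.49-fold (1.35 to 1.64, adjusted p = 5.62e-05 by limma with Benjamini-Hochberg). Hnrnpr, which binds beta-actin mRNA in axons of mouse motor neurons, had 77.9, 87.0 and 75.6 FPKM and its relative Syncrip 59.2, 61.3 and 52.8, a ratio of 1.39 (1.27 to 1.51, adjusted p = 0.000108 by limma with Benjamini-Hochberg). Smn1, a partner of Hnrnpr in axons and a builder of splicing particles, had 26.2, 31.7 and 26.5 FPKM. The other genes of the SMN complex lay above 1 FPKM in 8 of 8 cases, against 68.2% of all tested entries with a symbol. Strap (56.4 ± 5.63), Gemin8 (12.5 ± 1.43) and Ddx20 (11.4 ± 0.349) were highest and Gemin6 (4.23 ± 0.553) lowest. Tardbp, a nuclear protein that also travels in axonal granules, had 104, 119 and 104 FPKM.

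The last 2 groups act on initiation and on decay. Eif4e binds the mRNA cap, and Eif4ebp1 and Eif4ebp2 block it until they are phosphorylated by mTOR. Eif4e had 52.1, 59.4 and 51.4 FPKM. Eif4ebp2, the main form in brain, had 47.6, 50.98 and 48.4 FPKM and lay just below Eif4e in each library. Eif4ebp1 had 23.7, 28.0 and 22.1 FPKM, the lowest of the family. Eif4ebp2 exceeded Eif4ebp1 by 2-fold (1.77 to 2.26, adjusted p = 1.18e-05 by limma with Benjamini-Hochberg, 3 of 3 libraries). Eif4e exceeded Eif4ebp2 by 1.11-fold (1.01 to 1.21, adjusted p = 0.0399 by limma with Benjamini-Hochberg), but did not pass with 2 libraries (limma, Benjamini-Hochberg adjusted p of 0.156, 0.0684 and 0.0767 without libraries 1, 2 and 3), without a filter (0.0715) or under a plain prior (0.234). Upf1, the helicase of nonsense-mediated decay, had 25.5, 24.3 and 23.5 FPKM, and Upf2, its activator, 5.99, 6.32 and 5.94. Upf1 exceeded Upf2 by 3.97-fold (3.4 to 4.63, adjusted p = 9.92e-07 by limma with Benjamini-Hochberg). In mouse commissural axons Upf2 is known to act on a Robo3 transcript. Robo3 transcripts were not told apart in this table, and a relation of the 2 genes was not tested.

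Genes of the related lists, called pathway genes here, passed the test against 1 FPKM (limma, as above) in 123 of 134 cases. The lists also hold carried mRNAs and RNA-binding proteins known mainly outside neurons, of which the latter passed in 3 of 11 cases. Of all entries tested 63.7% passed, and 68.2% of those with a symbol, as the 134 have. The 134 include Dazl and Ddx4, which were at 0 in each library and so not tested. The lists share some known functions with the 52 genes and were chosen by name. All 18 genes of cap-dependent initiation passed, with Eif4a1 (487 ± 56.7), Eif4g2 (474 ± 27.1) and Eif4h (151 ± 13.4) highest and Eif4e3 (2.34 ± 0.195) lowest. All 13 genes of nonsense-mediated decay and the exon junction complex did too, with Rbm8a (110 ± 17.1), Eif4a3 (84.1 ± 7.85) and Magoh (69.8 ± 7.89) highest and Smg6 (3.69 ± 0.178) lowest. The 15 granule and transport genes all passed, led by Ybx1 (227 ± 22.5), Caprin1 (158 ± 6.55) and Ddx3x (137 ± 5.60), with Pura (7.77 ± 0.596) lowest. The 16 SR and related genes passed as well, with Srsf2 (187 ± 2.12), Srsf5 (172 ± 15.1) and Tra2b (132 ± 12.0) highest and Srsf12 (3.05 ± 0.830) lowest.

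The hnRNP list had the highest median, 150 FPKM, and 27 of 28 passed, led by Hnrnpa1 (679 ± 50.9), Hnrnpk (523 ± 35.7) and Hnrnpa2b1 (434 ± 28.6). Hnrnpc, which most cells use, was lowest at 0.450 ± 0.132 FPKM, the higher of its 2 rows. How multiply mapped reads were used is not given, and whether that lowered this value was not tested. Of the mRNAs known to be carried into axons or dendrites, 11 of 12 passed, with Actb (1850 ± 109), Cfl1 (1110 ± 124) and Map1b (262 ± 72.3) highest, and Arc lowest at 0.797 ± 0.0987. RNA-binding proteins known mainly outside neurons passed in 3 of 11 cases, Zfp36l1 (16.2 ± 1.61), Rbpms (2.68 ± 0.428) and Rbpms2 (2.45 ± 0.150), and the germ cell genes Dazl and Ddx4 were listed at 0 in each library. With each library rescaled to a sum of 1000000, 69 of the 134 passed.

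**Figure D3:**
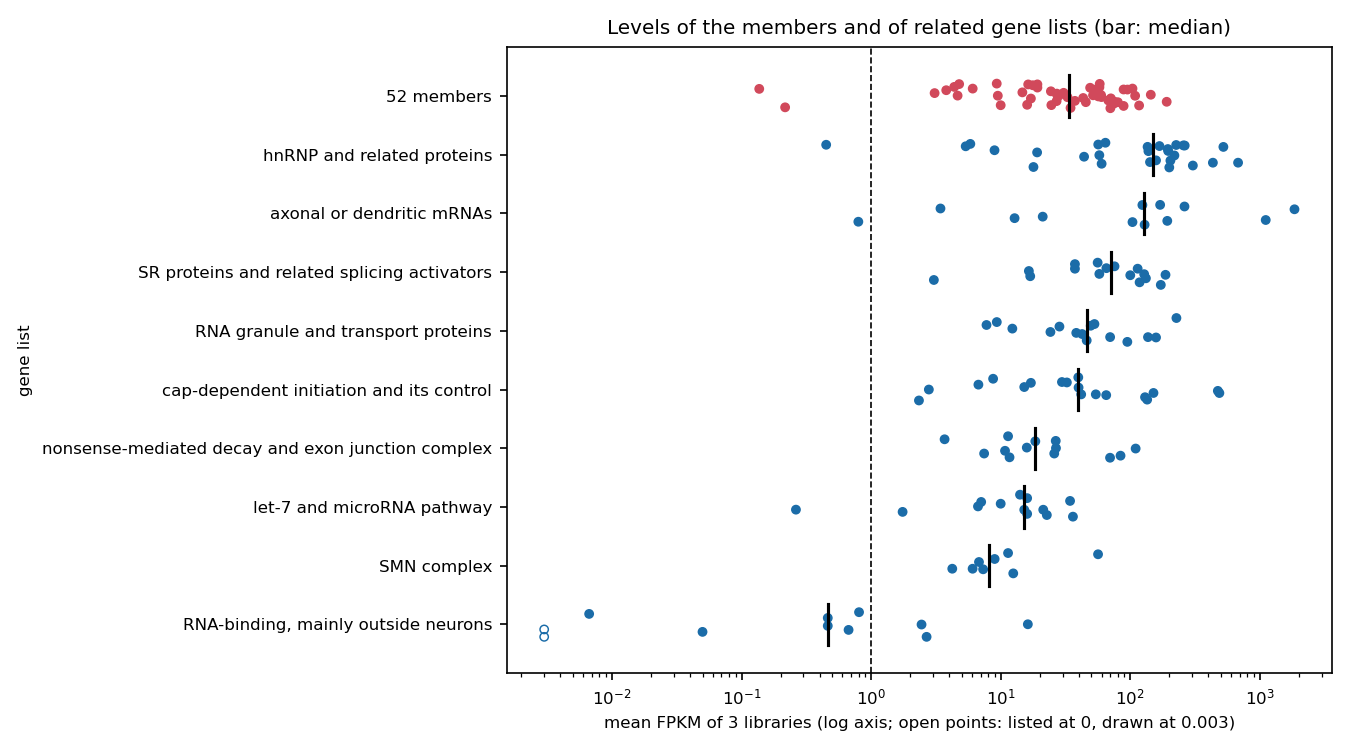
Mean FPKM (log axis, 3 libraries) of the 52 genes (red) and of 9 lists of related genes (blue), with bars at the medians, a broken line at 1 FPKM and open points for genes listed at 0. The 52 genes have a median of 33.7 FPKM, the hnRNP list 150 and the list of proteins known mainly outside neurons 0.463.

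Library 2 was set against libraries 1 and 3, since several genes above were lowest or highest there. Library 2 has no replicate of its own, so this is a description without a test. On the log2 scale, with the median of all entries of at least 5 FPKM subtracted (0.14), the median deviation of the 52 genes was -0.059, and 0.082 without that step. Of the 45 genes with a mean of at least 5 FPKM, 28 (62.2%) were highest in library 2, against 67.8% of the 8695 entries at that level, and 11 (24.4%) were lowest, against 19.4%. The deviations of these 45 ran from -0.44 for Nova2 and Cpeb2 to 0.15 for Eif4ebp1. Cpeb4 (-0.35), Srrm4 (-0.37) and Igf2bp1 (-0.34) lay near the low end, and Khdrbs3 (0.14) and Smn1 (0.12) near the high end. Qk, outside the 45 with a mean of 4.65 FPKM, was at 0.23. Several pathway genes deviated further downward: Srrm2 had 66.4 FPKM in library 2, against 140 and 147 in libraries 1 and 3, Smg1 7.34, against 14.2 and 13.7, and Map1b 179, against 311 and 295. Others were higher in library 2: Rbm8a had 129 FPKM there, against 99.5 and 100, and Srsf12 3.87, against 2.21 and 3.06. All 28 hnRNP genes were highest in library 2. The summed commissural axon list was 172 FPKM in library 2, against 245 and 252; Robo3, Dcc and Cntn2 were lowest in library 2 and Boc was highest there. Its part in the deviations was not tested.

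**Figure D4:**
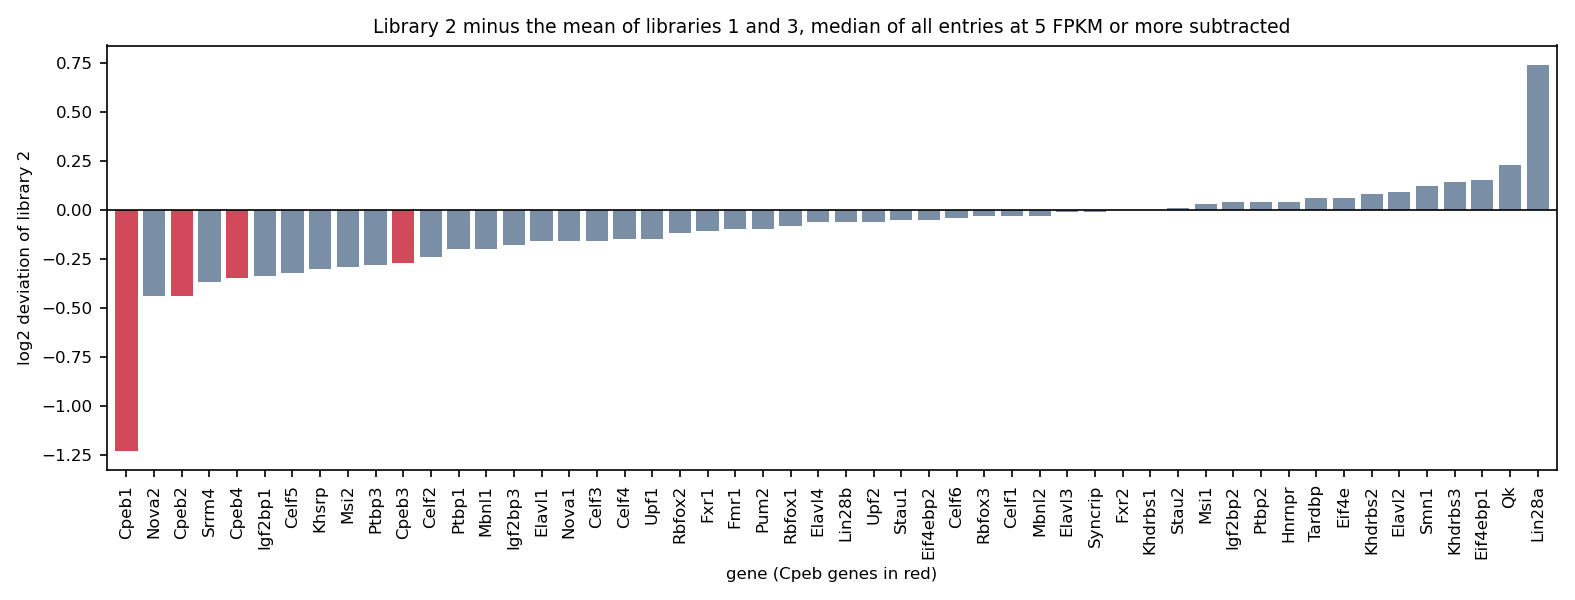
Log2 deviation of library 2 from the mean of libraries 1 and 3 for each of the 52 genes, after subtraction of the median of all entries of at least 5 FPKM; the Cpeb genes are red. The bars run from -1.23 for Cpeb1 to 0.74 for Lin28a, the 2 genes below 1 FPKM. The 4 Cpeb genes are all below 0, as are most of the 52 genes, among them every Celf, Rbfox, Nova, Mbnl and Upf gene.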

How the data were processed

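The authors deposited 1 table of FPKM values per gene with a column for each of the 3 libraries. Stranded libraries of polyadenylated RNA were read as 50 bp pairs, per the labels' protocols. FastQC, Trimmomatic 0.22 and STAR, and build rn6, are listed in the submitters' processing notes. Which program gave the FPKM, and how it used strand and multiply mapped reads, is not given in the sources used here, so levels of genes with near-identical copies or overlapping neighbours are uncertain. Summed FPKM was 19897930 to 26236642 per library; FPKM gives no absolute depth, so no counting intervals were computed. Pairs of libraries held identical values in 0.219% to 0.483% of entries of at least 5 FPKM, so all 3 were counted as separate samples.

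The deposited FPKM values entered every test as log2(FPKM + 0.1) with no further scaling. Limma 3.58.1 (R 4.3.3, statmod 1.5.0), with a trended, robust prior, tested levels one-sided against 1 FPKM and within-library differences two-sided, with Benjamini-Hochberg adjustment over the whole table and a threshold of 0.05. On simulated data of 17611 genes, 0 of 50 genes at 1 FPKM and 50 of 50 at 1.5 FPKM were called, and of pairs 4 of 50 at equal levels, 27 of 50 at a ratio of 1.2 and 50 of 50 at 1.5. The genes moved to these levels kept the noise of their original, often higher levels. The simulated shares may therefore overstate what is called among real entries near 1 FPKM, and likewise for pairs of low genes. Errors are SD over 3 libraries. All 52 genes are named, with the 3 highest and the lowest of each pathway list; Srrm3, Srrm2, Smg1 and the named markers were added after their values were seen. Members and lists were chosen with earlier results of these data known. For genes with several rows, the row with the highest mean was used. Of 135 pathway genes, 134 were matched, 1 of them by an older RefSeq symbol, and Pcbp1 was not analysed here. Promoter and microRNA sequences are RefSeq's (GRCr8), matched by symbol; rn6 positions were not used. Alternatives were other pseudocounts, scalings, filters, levels and priors, a margin for pairs, shifted table pairs, summed rows and each library left out. Plots used matplotlib 3.10.9.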

Additional observations from a re-analysis of the deposited data

How the results depend on the processing

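The count of 50 genes above 1 FPKM was the same under other pseudocounts (0.01 and 1), rescaling to an upper quartile or common sum, other filters, another prior, summed rows and without any 1 library; it was 45 against a level of 5 FPKM, and 50 with entries above 10000 FPKM left out of a sum of 1000000, an alternative chosen after the data were seen. Against 5 FPKM the log2 level turned below 0 for Mbnl1 (-0.06), Mbnl2 (-0.39), Qk (-0.12), Lin28b (-0.73) and Cpeb3 (-0.19). Rescaling to 1000000 over all entries, also chosen later, gave 26 genes and 69 pathway genes; by its construction every level is lower, and the log2 levels of Igf2bp1 (-1.13), Igf2bp2 (-0.26), Igf2bp3 (-1.07), Fmr1 (-0.47), Elavl1 (-0.26), Ptbp3 (-0.42), Celf6 (-1.15), Mbnl1 (-1.86), Mbnl2 (-2.07), Khdrbs2 (-0.50), Qk (-1.89), Lin28b (-2.27), Srrm4 (-0.37), Cpeb2 (-0.61), Cpeb3 (-1.94) and Upf2 (-1.62) fell below 0. Of 52 related pairs, 46 to 48 differed without any 1 library and 45 of 48 with a mean of at least 0.5 FPKM. Without 1 library, the log2 ratio of Elavl2 to Elavl4 ran from -0.04 to 0.07 and that of Celf4 to Celf1 from -0.03 to 0.06. Without a filter, the calls of Celf1 over Celf5 and Eif4e over Eif4ebp2 were lost (limma, adjusted p of 0.059 and 0.0715), as were Fxr2 over Fxr1 and Eif4e over Eif4ebp2 under a plain prior (0.117 and 0.234). The median deviation of library 2 was 0.082 when the shift of all entries was not subtracted, and -0.073 to -0.067 against 1 library. Depth is not given by FPKM, which limits what can be said of Lin28a and Cpeb1. Identity between proteins was not computed, as no protein sequences were used here. No paired comparison of groups was possible because the series holds 1 group, and only genes were paired, within each library.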
